A study of Homo sapiens with 6 samples.

Results

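Metallothioneins are small cysteine-rich proteins that bind zinc, copper and cadmium, and zinc transporters move zinc across the cell surface and organelle membranes. A set of 10 such genes, of 58825 in the deposited table, was followed in PANC-1 cells. It held the metallothionein genes MT1E, MT1F, MT1G, MT1M, MT1X and MT2A, the metal-sensing transcription factor gene MTF1, the zinc exporter gene SLC30A1 and the zinc importer genes SLC39A10 and SLC39A14. The genes were chosen by symbol. Each symbol matched 1 row of the table, and measured values did not enter the rule.

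PANC-1 is an established human pancreatic ductal carcinoma cell line. The groups were 3 libraries of PANC-1 cells given 8 µM of a compound labelled CMR for 48 h and 3 libraries of control PANC-1 cells. All cells were kept in serum-containing medium. Neither the full name of CMR nor the handling and time of the control cells was stated. No label ties the 3 libraries of a group to separate cultures, so every p-value here reflects library-to-library spread alone and may be technical in part.

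When free zinc in a cell rises, the zinc-finger protein MTF1 enters the nucleus and binds short DNA motifs called metal response elements (MREs). Through them it activates metallothionein genes, whose products hold the metal, and SLC30A1, whose product exports zinc at the plasma membrane. In mouse and zebrafish MTF1 also represses the gene of the importer ZIP10. ZnT proteins (SLC30 genes) mostly move zinc out of the cytosol and ZIP proteins (SLC39 genes) move it into the cytosol. In secretory tissues such as the pancreas, ZnT and ZIP proteins of the endoplasmic reticulum (ER) and Golgi also supply zinc to enzymes made there.

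The coding sequences of MT2A, MT1E, MT1X and MT1F are shown because they are so alike. MT2A and MT1E were called lower with CMR, and MT1X and MT1F, whose fold changes were positive, were not called. They come from the GENCODE release 29 transcripts (GRCh38, chromosome 16, plus strand). Capitals mark the TGC and TGT codons, which encode the metal-binding cysteines.
MT2A coding sequence, exons within chr16:56608656-56609351: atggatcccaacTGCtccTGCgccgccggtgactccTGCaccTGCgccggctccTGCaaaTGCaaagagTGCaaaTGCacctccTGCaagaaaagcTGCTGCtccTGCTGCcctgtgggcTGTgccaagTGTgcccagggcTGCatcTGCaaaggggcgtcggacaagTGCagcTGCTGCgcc
MT1E coding sequence, exons within chr16:56625852-56626968: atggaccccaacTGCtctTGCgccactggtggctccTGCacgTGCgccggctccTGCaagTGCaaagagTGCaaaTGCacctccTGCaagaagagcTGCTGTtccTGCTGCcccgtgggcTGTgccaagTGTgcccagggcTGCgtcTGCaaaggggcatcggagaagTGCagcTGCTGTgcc
MT1X coding sequence, exons within chr16:56682541-56684046: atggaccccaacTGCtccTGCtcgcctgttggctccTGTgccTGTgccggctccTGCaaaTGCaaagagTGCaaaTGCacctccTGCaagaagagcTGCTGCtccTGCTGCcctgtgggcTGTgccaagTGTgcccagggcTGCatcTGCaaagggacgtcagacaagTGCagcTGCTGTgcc
MT1F coding sequence, exons within chr16:56658059-56659161: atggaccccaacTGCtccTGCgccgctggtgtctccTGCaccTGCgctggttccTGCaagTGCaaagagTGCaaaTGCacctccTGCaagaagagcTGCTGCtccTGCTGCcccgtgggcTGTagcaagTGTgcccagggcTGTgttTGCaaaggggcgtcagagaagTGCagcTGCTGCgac
Each of the 4 has 183 bases and 20 cysteine codons. MT2A shared 92.3% of bases with MT1E, 92.3% with MT1X and 91.3% with MT1F, and MT1X shared 88.5% with MT1F. All GENCODE transcripts of a gene were pooled and compared by exact 50-base stretches, because stretches outside the coding part are also read. The share of such stretches and the identity per base are unlike measures and cannot be set against each other. Of the 50-base stretches, 3.02% of those of MT2A and 7.10% of those of MT1E also occurred in a GENCODE transcript of another gene. The share was 1.22% for MT1F. For MT1X the share was 18.3%, and AC026461.1, a non-coding gene at the same place, was among the genes that held the same stretches. The MT1X pool held 1867 distinct stretches and the MT1F pool 1971, against 450 and 690 bases in the transcripts with these coding sequences. The shares within those transcripts alone were not computed and may be higher. How the authors' counting treated reads that fit several copies was not stated. The split of counts between metallothionein genes is therefore uncertain, by an amount that these shares do not bound.

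The 250 bases before the start of MT2A, MT1X and SLC30A1, which MTF1 is known to act on, are shown with the MRE cores in capitals. The sequences are from RefSeq (GRCh38.p14), and a core was TGCACNC or TGCGCNC on either strand, so that a core on the other strand reads GNGTGCA or GNGCGCA.
MT2A upstream, chr16:56608334-56608583, plus strand: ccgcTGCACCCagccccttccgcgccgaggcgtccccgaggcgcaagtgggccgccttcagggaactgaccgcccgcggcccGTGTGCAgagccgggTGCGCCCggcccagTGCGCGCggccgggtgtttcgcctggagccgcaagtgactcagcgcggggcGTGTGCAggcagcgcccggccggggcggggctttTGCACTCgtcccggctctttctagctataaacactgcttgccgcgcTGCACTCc
MT1X upstream, chr16:56682220-56682469, plus strand: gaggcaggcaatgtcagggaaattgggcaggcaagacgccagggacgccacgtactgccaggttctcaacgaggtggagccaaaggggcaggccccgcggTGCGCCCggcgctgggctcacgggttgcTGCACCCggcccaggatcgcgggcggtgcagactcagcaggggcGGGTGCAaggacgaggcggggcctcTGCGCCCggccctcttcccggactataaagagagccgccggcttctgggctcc
SLC30A1 upstream, chr1:211579162-211579411, minus strand: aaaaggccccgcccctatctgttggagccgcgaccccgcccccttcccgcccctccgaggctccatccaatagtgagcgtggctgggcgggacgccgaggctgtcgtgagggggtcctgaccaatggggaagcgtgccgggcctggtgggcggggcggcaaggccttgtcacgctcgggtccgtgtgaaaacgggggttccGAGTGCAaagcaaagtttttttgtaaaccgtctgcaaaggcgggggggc
MT2A held 7 cores, MT1X 4 and SLC30A1 1. Of 35114 RefSeq windows of this length, 24.8% held at least 1 core, 0.370% at least 4 and 0.0313% at least 7. No core was found in the window of MTF1 or in either window of SLC39A10, so these letters are not in those windows. The table of windows matched 5 of the 10 genes. MT1E, MT1F, MT1G, MT1M and SLC39A14 were not matched. The antioxidant motif TGACNNNGC, read on both strands, was found 1 time each in the windows of MT2A, MT1X and SLC30A1 and in 10.9% of all windows. None of the 3 overlapped an MRE core. The C/EBP-ATF motif TGATGNAA, read on both strands, was found in none of the windows of these 5 genes and in 3.14% of all windows.

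**Figure D1:**
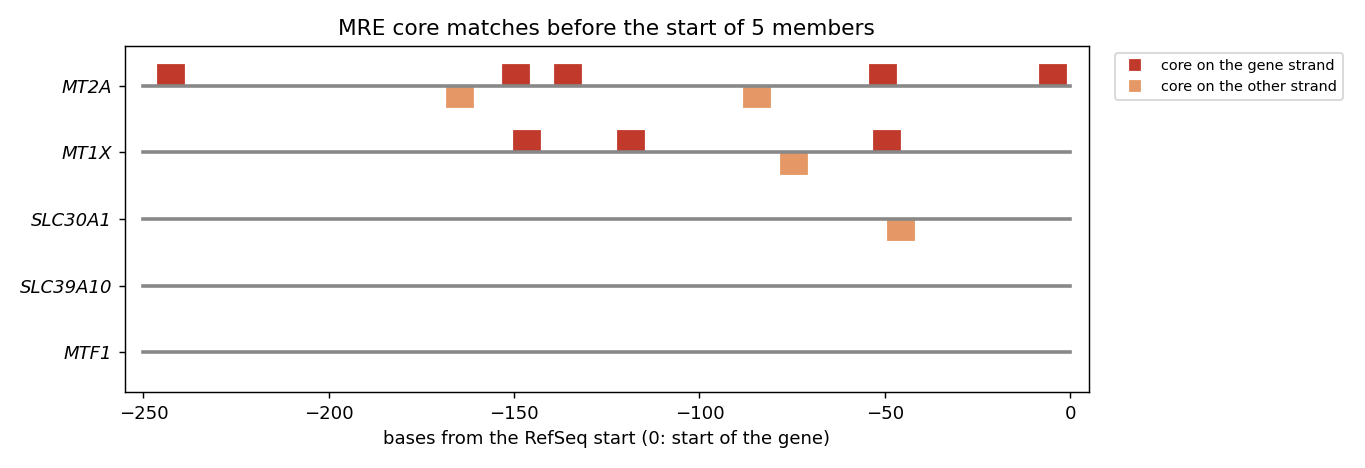
The map shows the 250 bases before the RefSeq start of MT2A, MT1X, SLC30A1, SLC39A10 (its first window) and MTF1, with the distance from the start in bases on the horizontal axis and boxes for MRE cores on either strand. MT2A has 7 boxes, MT1X 4 and SLC30A1 1, and the lines of SLC39A10 and MTF1 have none.

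The metallothionein genes with most counts were lower in CMR-treated cells while the gene of their activator was higher. MT2A, the most abundant metallothionein here, was 2.65-fold lower and MT1E 3.01-fold lower, whereas MTF1 was 2.27-fold higher. The zinc importer gene SLC39A10 was 2.40-fold lower, and the zinc exporter gene SLC30A1 missed the threshold (log2 fold change -0.28 ± 0.12 SE, adjusted p = 0.101 by edgeR). Counts were tested over all genes with edgeR's quasi-likelihood test, and a gene was called at a Benjamini-Hochberg adjusted p under 0.05. Of the 10 genes, 9 passed the filter on low counts, 4 were called and 5 were not, with 1 higher and 3 lower. Over all 19200 genes tested, 38.6% were called, 20.5% higher and 18.1% lower. The libraries of the groups did not overlap in 7 of the 9 genes, 3 higher and 4 lower, beside 53.9% of all tested genes. The share of the set that was called lies near its background, and its share without overlap lies above its own. With 9 genes, chosen with earlier results known, no test was made of either count.

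MT2A (ENSG00000125148, chr16:56608584-56609497, plus strand) had 55.1, 42.7 and 41.8 CPM (counts scaled to library size) in CMR libraries, against 143, 117 and 110.4 CPM in control libraries. Every CMR library lay below every control library. Its log2 fold change was -1.41 ± 0.15 SE (edgeR adjusted p = 0.000564). MT1E (ENSG00000169715, chr16:56625475-56627112, plus strand), another broadly expressed metallothionein gene, had 14.2, 9.29 and 12.8 CPM in CMR libraries and 42.1, 34.8 and 32.2 CPM in control libraries. The groups again stood apart, and the log2 fold change was -1.59 ± 0.19 (edgeR adjusted p = 0.000884).

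MT1X and MT1F had positive fold changes, and neither was called. MT1X (ENSG00000187193, chr16:56682470-56684196, plus strand) had 5.09, 4.69 and 9.40 CPM with CMR and 3.90, 4.0 and 4.47 CPM in control. All CMR values exceeded all control values, the third CMR library by the widest margin. The log2 fold change was 0.63 ± 0.29 (95% interval -0.18 to 1.44 on 4 residual degrees of freedom, edgeR adjusted p = 0.132), and without CMR replicate 3 it was 0.24. MT1F (ENSG00000198417, chr16:56657731-56660698, plus strand) had 41, 38 and 36 counts in CMR libraries and 9, 25 and 9 counts in control libraries. Its groups did not overlap, the second control library was nearest to the CMR libraries, and the log2 fold change was 1.15 ± 0.57 (95% interval -0.45 to 2.74, edgeR adjusted p = 0.160). Without control replicate 2 the value was 1.89 and the gene was called (edgeR adjusted p = 0.0419).

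MT1M (ENSG00000205364, chr16:56632659-56633981, plus strand) had 0, 0 and 10 counts in CMR libraries and 13, 8 and 20 counts in control libraries. It passed the filter only through the control libraries, and it missed the threshold (log2 fold change -2.18 ± 1.35, adjusted p = 0.249 by edgeR). Without CMR replicate 3, the CMR library with counts, both remaining CMR libraries were at 0, and the gene was called (edgeR adjusted p = 0.0272). MT1G (ENSG00000125144, chr16:56666731-56668065, minus strand) had 0 counts in all 6 libraries. This allows up to 3 counts per library if each count is 1 sequenced fragment, and it covers counting error only. Low counts in this table pile up at steps of about 4: over the 6 libraries 3170 values were 3, 8494 were 4 and 1871 were 5. A count of 8 or 10 may therefore stand for very few sequenced fragments, and the bound for MT1G would then be above 3 counts.

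**Figure D2:**
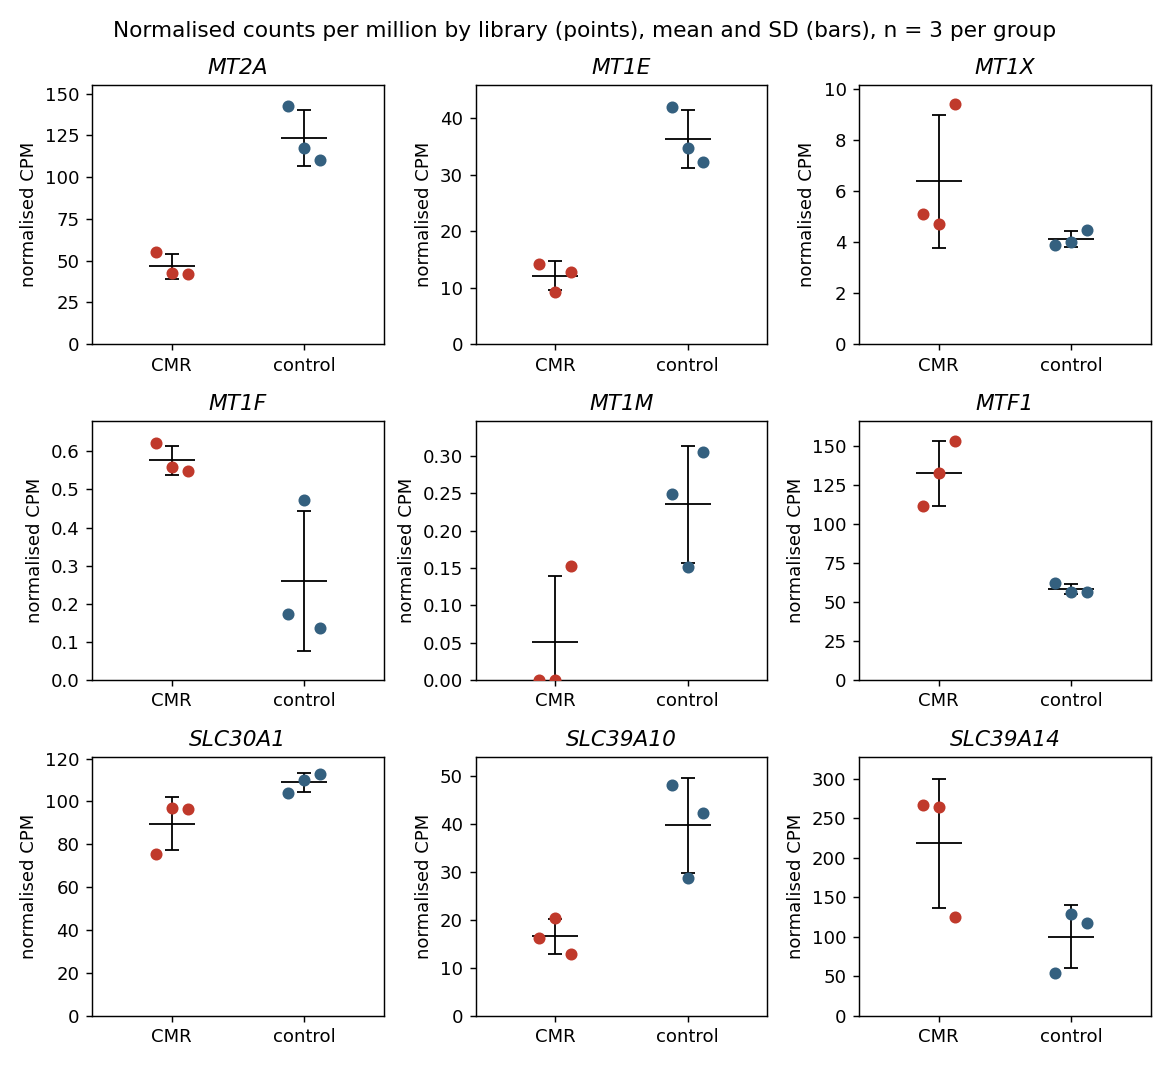
Each panel plots normalised CPM of 1 gene on an axis that starts at 0, with CMR libraries left of control libraries, points for single libraries and bars for the mean and SD (n = 3 each). MT2A, MT1E and SLC39A10 lie lower and MTF1 higher with CMR, without overlap, while MT1M and SLC39A14 overlap between the groups.

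Other genes named as metallothioneins were listed as well, in and outside the cluster on chromosome 16. Of 14 listed names, 12 were in the table, 5 had any count and 3 were tested, and these 3 were called lower with CMR, beside 18.1% of all tested genes. In the cluster itself 2 of them, MT1L and MT1A, were tested. MT1L (ENSG00000260549, chr16:56617476-56618818, plus strand), annotated in the table as a pseudogene with transcripts, had 16.4, 14.6 and 11.2 CPM in CMR libraries and 46.2, 38.0 and 37.6 CPM in control libraries (log2 fold change -1.53 ± 0.17, edgeR adjusted p = 0.000686). MT1A, a functional metallothionein gene, averaged 1.12 ± 0.113 CPM with CMR and 3.77 ± 1.23 CPM in control (SD, n = 3 each; log2 fold change -1.75 ± 0.29, edgeR adjusted p = 0.00303). Both thus moved as MT2A and MT1E did. Of 50-base stretches, 4.42% of those of MT1L and 5.76% of those of MT1A were shared with another gene. The third tested name, TESMIN, lies outside the cluster on chromosome 11 and encodes a cysteine-rich testis protein that is not a metallothionein (4.85-fold lower). MT1H had 0, 6 and 9 counts in CMR libraries and 0 in each control library, and MT1B, MT3 and MT4 had none in any library.

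**Figure D3:**
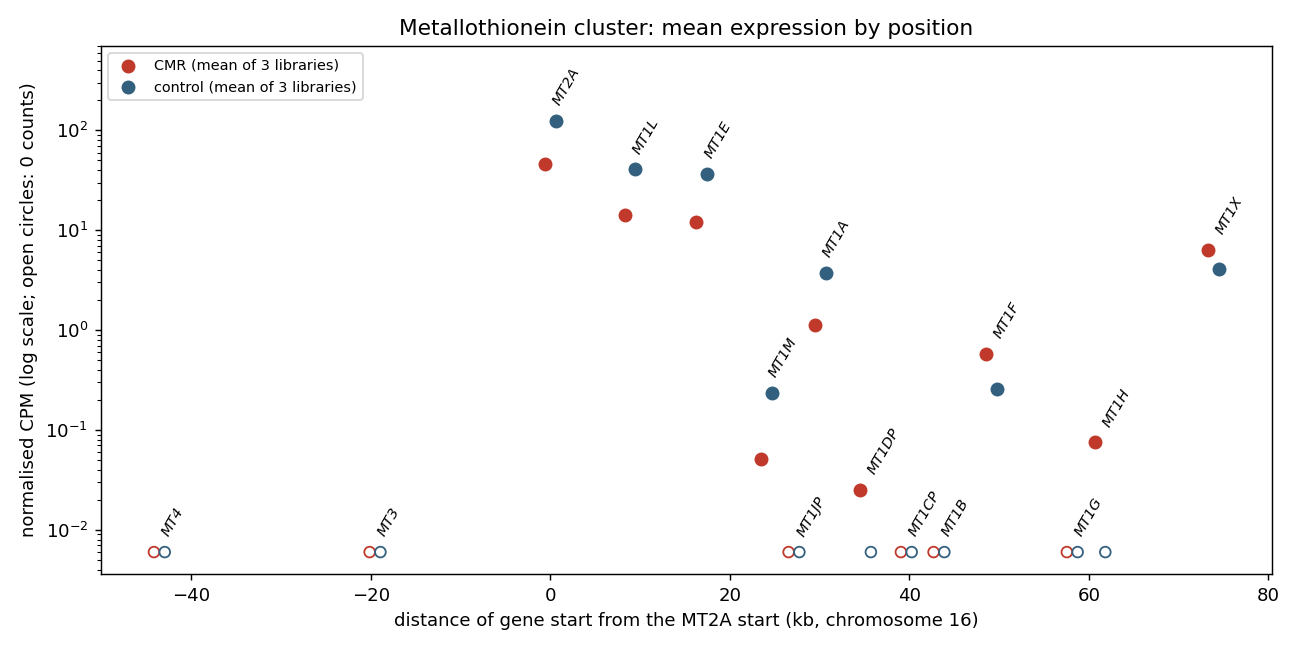
The plot gives the mean normalised CPM of 3 libraries per group on a log axis against the distance of each gene start from the MT2A start in kb, with the groups drawn side by side and open circles for genes at 0 counts. MT2A, MT1L, MT1E, MT1M and MT1A have lower points with CMR, and MT1F and MT1X have higher points with CMR. Of these genes, MT1M, MT1F and MT1X were not called. MT1H and MT1DP, which were not tested, have counts with CMR only.

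Summed over the MT1 and MT2A genes of the cluster, counts came to 81.0 ± 10.4 CPM with CMR and 209 ± 27.9 CPM in control (SD, n = 3 each). MT2A made up 57.4 ± 2.75% of these counts with CMR and 59.1 ± 0.364% in control. MT1X made up 8.03 ± 3.63% with CMR and 2.01 ± 0.378% in control, and MT1E 14.9 ± 1.98% and 17.4 ± 0.242% in CMR and control libraries. The depth of a library cancels in a ratio of 2 genes, so 7 such ratios were compared with exact 2-sided permutation tests, for which 0.1 is the smallest p that 3 against 3 libraries allow. The log2 ratio of MT1X to MT2A was -2.93 ± 0.680 with CMR and -4.90 ± 0.285 in control, a difference of 1.97 without overlap (exact p = 0.1, adjusted 0.175 over the 7). For MT1F to MT2A the difference was 2.77 (exact p = 0.1, adjusted 0.175). The ratios to MT2A differed by -0.19 for MT1E (exact p = 0.4, adjusted 0.4), -0.13 for MT1L (exact p = 0.4, adjusted 0.4) and -0.30 for MT1A (exact p = 0.3, adjusted 0.4), within the spread of the libraries. The ratios of MT1X and MT1F to MT2A were higher in every CMR library than in every control library. This was fixed in advance, because MT1X and MT1F each stood apart upwards and MT2A downwards. The p-values of these ratios thus add nothing to the values of the single genes.

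**Figure D4:**
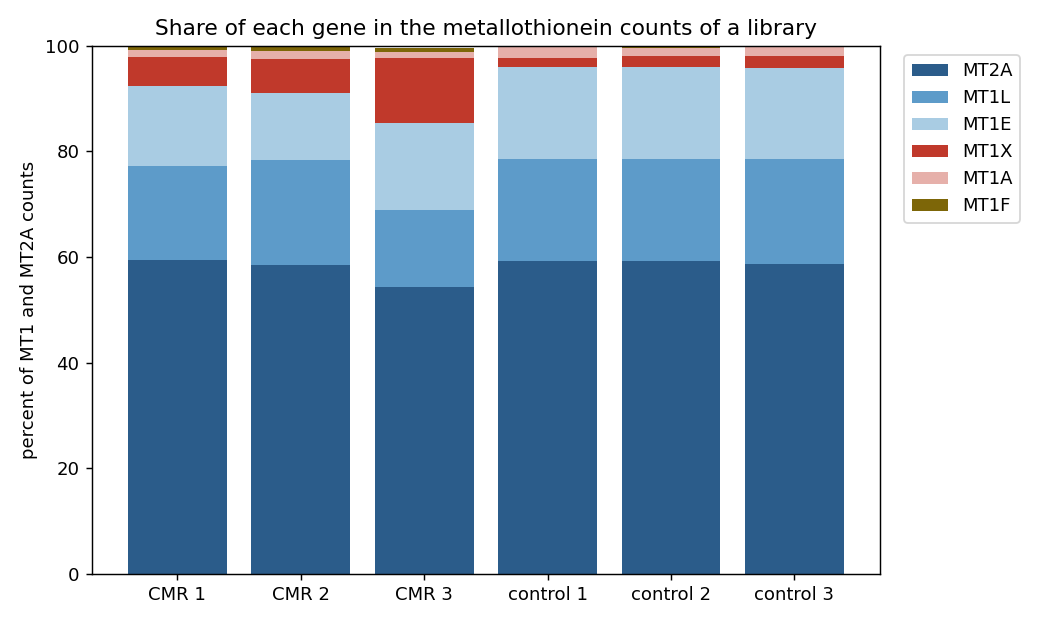
Stacked bars from 0 to 100 percent show, for each CMR library and then each control library, the share of the cluster's metallothionein counts from MT2A, MT1L, MT1E, MT1X, MT1A and MT1F. The MT1X band averages 8.03% in CMR libraries and 2.01% in control libraries and is widest in CMR library 3.

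MTF1 (ENSG00000188786, chr1:37809574-37859592, minus strand), the zinc-sensing activator of these genes, had 112, 132 and 153 CPM in CMR libraries and 62.3, 56.1 and 56.3 CPM in control libraries. Every CMR library exceeded every control library (log2 fold change 1.19 ± 0.13, edgeR adjusted p = 0.000614). The log2 ratio of MT2A to MTF1 was -1.51 ± 0.441 with CMR and 1.08 ± 0.113 in control (SD, n = 3 each), a difference of -2.58 (exact p = 0.1, adjusted 0.175). Both genes already stood apart in opposite directions, so this p-value was fixed in advance. The MT2A and MTF1 values are mRNA levels: metal binding and entry of the MTF1 protein into the nucleus were not measured. Of 8 genes listed as partners or modifiers of MTF1 or of transcription with it, 3 were higher and 1 lower with CMR, beside 20.5% higher and 18.1% lower over all tested genes (median log2 fold change 0.08, against -0.01). The antioxidant enzyme gene PRDX1 was 1.40-fold, the kinase gene LATS1 1.39-fold and the coactivator gene EP300 1.35-fold higher, and HIF1A, the hypoxia-inducible factor gene, was 1.34-fold lower. The LATS1 call was lost with upper-quartile factors (adjusted p = 0.0805), without any 1 of the control libraries and without CMR replicate 2 or 3 (edgeR adjusted p from 0.0633 to 0.102), and the HIF1A call without control replicate 1 or 3 (0.0753 and 0.0699).

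SLC30A1 (ENSG00000170385, chr1:211571568-211579161, minus strand) encodes ZnT1, the plasma membrane exporter that MTF1 activates. It had 75.3, 97.0 and 96.6 CPM in CMR libraries, against 104, 109.9 and 113 CPM in control libraries. All CMR values were lower, by a margin that was small beside the spread. The 95% interval of the log2 fold change on 4 residual degrees of freedom ran from -0.61 to 0.05. This interval is wider than the edgeR test implies, whose p before adjustment was 0.0474. The call depended on the scaling. With upper-quartile factors the value was -0.41 and the gene was called lower (edgeR adjusted p = 0.0236). With library totals alone it was -0.36, also called (edgeR adjusted p = 0.0384). Median-of-ratios scaling gave -0.28 and no call (edgeR adjusted p = 0.113), as did DESeq2 (-0.28, DESeq2 adjusted p = 0.118). Upper-quartile factors and library totals alone also put the all-gene median log2 fold change at -0.14 and -0.08, against -0.01 with TMM. The log2 ratio of SLC30A1 to MTF1, in which scaling cancels, was -0.56 ± 0.108 with CMR and 0.90 ± 0.142 in control, a difference of -1.46 (exact p = 0.1, adjusted 0.175). Here too both genes stood apart in opposite directions, which fixed the p-value in advance.

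SLC39A10 (ENSG00000196950, chr2:195575977-195737702, plus strand) encodes ZIP10, a zinc importer of the plasma membrane. It had 16.2, 20.3 and 12.9 CPM in CMR libraries and 48.1, 28.7 and 42.1 CPM in control libraries. The groups did not overlap, and the second control library was nearest to the CMR libraries (log2 fold change -1.26 ± 0.24, edgeR adjusted p = 0.00544).

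SLC39A14 (ENSG00000104635, chromosome 8) encodes ZIP14, which imports zinc, iron and manganese. It had 267, 265 and 124 CPM in CMR libraries and 54.1, 128 and 117 CPM in control libraries. The third CMR library lay within the control range, and the first control library lay far below the other control libraries. The mean was 2.19-fold higher with CMR but missed the threshold (log2 fold change 1.13 ± 0.39, 95% interval 0.04 to 2.22, edgeR adjusted p = 0.0571). It was called without CMR replicate 3 (edgeR adjusted p = 0.0268), and DESeq2 called it in all 6 libraries (DESeq2 adjusted p = 0.00451).

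Levels of different genes were set side by side per length, as FPKM (counts scaled to gene length and library size), which rests on the gene length the authors used. With CMR the order of mean levels was MT2A (41.7 ± 7.44 FPKM), SLC39A14 (25.8 ± 9.91), MTF1 (13.5 ± 1.89), SLC30A1 (12.4 ± 1.52), MT1E (9.40 ± 2.06), MT1X (3.0 ± 1.19), SLC39A10 (1.95 ± 0.441), MT1F (0.250 ± 0.0198) and MT1M (0.0747 ± 0.129; SD, n = 3 each). In control it was MT2A (117 ± 16.1 FPKM), MT1E (29.8 ± 4.23), SLC30A1 (15.9 ± 0.62), SLC39A14 (12.4 ± 4.99), MTF1 (6.29 ± 0.383), SLC39A10 (4.94 ± 1.24), MT1X (2.04 ± 0.153), MT1M (0.357 ± 0.133) and MT1F (0.106 ± 0.0822). In CMR libraries the neighbours SLC39A14 and MTF1, MTF1 and SLC30A1, SLC30A1 and MT1E, and MT1X and SLC39A10 overlapped. In control libraries SLC30A1 and SLC39A14, and SLC39A14 and MTF1, overlapped. MT1G was listed at 0.0001, the value given to genes without counts. The length implied by counts and FPKM was about 1088 bases for MT2A, 1253 for MT1E and 2071 for MT1X, against 786, 704 and 450 bases in the GENCODE transcripts with the coding sequences above, so the order of levels among metallothioneins depends on the length used.

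Genes outside the set that were listed as zinc exporters were higher with CMR in 4 of 6 tested cases and lower in none. Over all tested genes 20.5% were higher and 18.1% lower. Their median log2 fold change was 1.01, against -0.01 over all tested genes. The list named 10 genes. SLC30A7, a ZnT gene of the early secretory pathway, had 53.8, 81.5 and 106 CPM in CMR libraries and 21.3, 21.1 and 23.8 CPM in control libraries (log2 fold change 1.87 ± 0.24, edgeR adjusted p = 0.00109). SLC30A5, whose product also loads zinc into the early secretory pathway, had 203, 224 and 237 CPM in CMR libraries and 80.0, 79.2 and 86.6 CPM in control libraries (1.43 ± 0.09, edgeR adjusted p = 8.9e-05). SLC30A4, a ZnT gene of endosomes and vesicles, was 2.88-fold higher and SLC30A9, a mitochondrial ZnT gene, 1.5-fold higher. The CMR and control libraries of these 4 genes did not overlap. SLC30A6, whose product pairs with that of SLC30A5 and which falls outside the rule for named genes, had 64.2, 114 and 156 CPM in CMR libraries and 87.5, 93.6 and 88.8 CPM in control libraries and missed the threshold (log2 fold change 0.31 ± 0.28, adjusted p = 0.432 by edgeR).

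Zinc importer genes outside the set went both ways. Of 12 listed, 9 were tested, 4 were higher, 2 were lower and 3 were not called, beside 20.5% higher and 18.1% lower over all tested genes, and the median log2 fold change was 0.25. SLC39A7, whose product ZIP7 releases zinc from the ER, had 524, 517 and 602 CPM in CMR libraries and 169, 166 and 170.4 CPM in control libraries (log2 fold change 1.70 ± 0.08, edgeR adjusted p = 4.89e-05). It was the zinc transporter gene with the highest level per length in these lists, at 157 ± 11.6 FPKM with CMR and 51.1 ± 0.497 FPKM in control. SLC39A9, a ZIP gene of the Golgi, was 2.10-fold higher, but its span overlaps that of ERH on the other strand, which had 7504 counts on average, beside 8365 for SLC39A9. SLC39A3 was 1.38-fold and SLC39A6 1.19-fold higher. The SLC39A6 call was lost without any 1 library other than CMR replicate 1 (edgeR adjusted p from 0.0747 to 0.141). It was also lost with upper-quartile factors (edgeR adjusted p = 0.247), library totals alone (0.106), no filter on low counts (0.0733) and a replicate block (0.0892). Limma on log2(FPKM + 1) or log2(FPKM + 0.1) did not call SLC39A6 either (limma adjusted p = 0.0759 and 0.0832). The call held with DESeq2, median-of-ratios scaling, limma-voom and without CMR replicate 1. The SLC39A3 call was lost without CMR replicate 3 or control replicate 1 or 3 (edgeR adjusted p from 0.0594 to 0.0795) and with upper-quartile factors (0.0704). The 2 lower genes, SLC39A8 and SLC39A4, are outside the rule for named genes and were at most 3.66 CPM on average in either group (2.41-fold and 2.03-fold lower).

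**Figure D5:**
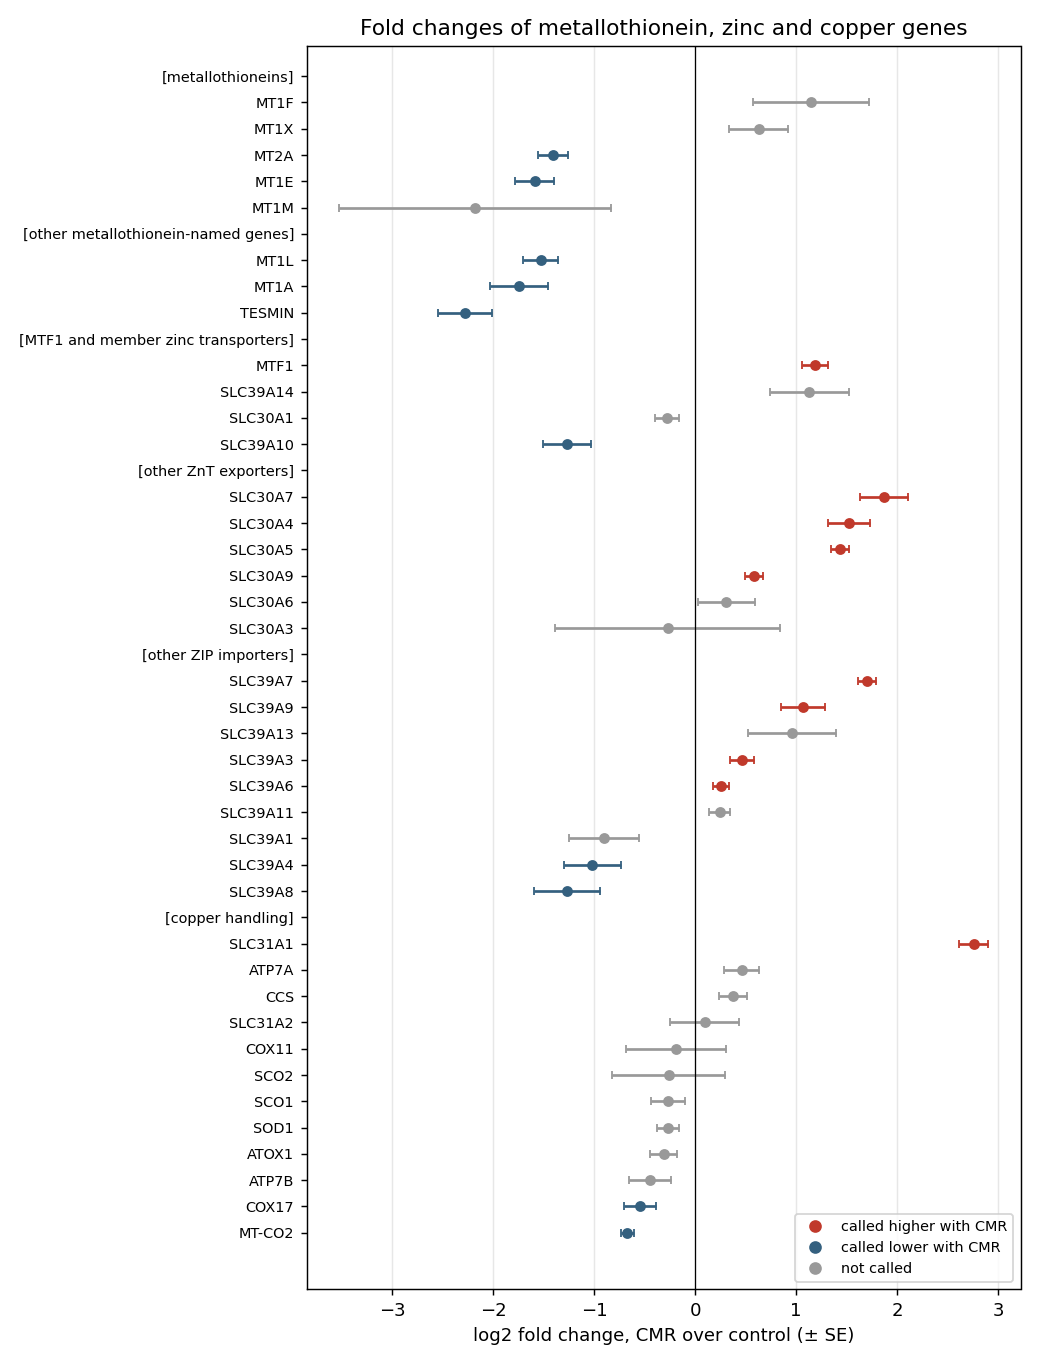
Points give the log2 fold change of CMR over control with bars of 1 SE for the tested genes of 6 lists, coloured by the call of the edgeR test over all genes. MT2A, MT1E, MT1L and MT1A lie between -1.75 and -1.41, and SLC30A7, SLC30A4, SLC30A5 and SLC39A7 lie between 1.43 and 1.87.

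Of 12 tested genes for copper, which metallothioneins also bind, 1 was higher, 2 were lower and 9 were not called (median log2 fold change -0.26), beside 38.6% of all tested genes called. The higher one was SLC31A1, the copper importer CTR1, with 309, 336 and 433 CPM in CMR libraries and 50.0, 53.5 and 55.8 CPM in control libraries (6.76-fold; log2 fold change 2.76 ± 0.14, edgeR adjusted p = 5.26e-05). COX17, a copper chaperone of mitochondria, was 1.46-fold lower, a call lost without CMR replicate 2 or any 1 control library (edgeR adjusted p from 0.0603 to 0.0960), and MT-CO2, a copper-holding subunit of respiratory complex IV, was 1.59-fold lower. In the iron and manganese list 2 of 8 were higher, the ferritin genes FTL (3.63-fold) and FTH1 (3.45-fold), and none was lower (median 0.32), beside 20.5% higher and 18.1% lower over all tested genes. Of 10 heat shock genes that metals can induce, 2 were higher and 5 lower (median -0.09), beside the same shares over all tested genes. HSPA6, an inducible chaperone gene, was 5.25-fold higher at 3.39 ± 1.21 CPM with CMR and 0.643 ± 0.187 CPM in control (SD, n = 3 each), and HMOX1, which degrades heme, was 13.2-fold higher. The chaperone genes HSPB1 and HSP90AA1 were 2.12-fold and 1.80-fold lower.

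Library totals ran from 66460535 to 70129221 counts with CMR and from 51147268 to 63811430 in control, and CMR and control libraries correlated with r from 0.943 to 0.963 across genes, against 0.985 to 0.989 within a group (genes are not independent replicates). All 8 epithelial and mesenchymal markers of the line had counts in both groups. With CMR 5 of them were lower and 0 higher, beside 18.1% lower and 20.5% higher over all tested genes. Their median log2 fold change was -0.85, against -0.01 over all tested genes. Of 27 markers of adipose, immune, endothelial, fibroblast, acinar and islet cells, 8 were at 0 in all libraries, and the sum of all 27 ran from 2.09 to 2.30 CPM with CMR and from 2.64 to 4.88 CPM in control. Few of these 27 were tested: 0 adipose, 1 immune, 2 endothelial, 3 fibroblast and stellate, and 1 among acinar and islet markers. Of the tested ones 2 were called, beside 38.6% of all tested genes, and both are named after their values were seen. The acinar gene PRSS1 had 17, 15 and 14 counts in CMR libraries and 0 in each control library. The smooth muscle actin gene ACTA2 had 0, 4 and 4 counts in CMR libraries and 62, 27 and 23 in control libraries. Each passed the filter on low counts only through the group where it is high. The part of these markers in the results was not tested. Among 6 genes often used as references, TBP was 1.48-fold higher, RPLP0 missed the threshold (log2 fold change 0.09, adjusted p = 0.355 by edgeR, and -0.04 with upper-quartile factors), and GAPDH, PPIA, HPRT1 and ACTB were 1.41-fold, 1.47-fold, 2.28-fold and 2.70-fold lower, the GAPDH call being lost without CMR replicate 2 or control replicate 1 (edgeR adjusted p = 0.0520 and 0.0538).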

How the data were processed

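Libraries were paired-end and poly(A)-selected according to the labels. The count values that the authors deposited are whole and not normalized. The FPKM values deposited beside them relate counts to gene length and library size, per the file headers. Tools named in the submitters' processing notes are StringTie 1.3.0, HISAT2 2.0 and Bowtie 0.12.2, and the build named there is mm8, of mouse. The identifiers are human: of 58552 found in GENCODE release 29, 47519 (81.2%) sit at the same GRCh38 coordinates, and GRCh38 was used. Columns of no sample numbered 0.

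Counts were tested with edgeR 4.0.16 in R 4.3.3 (TMM, filterByExpr with a minimum count of 10 and total of 15, quasi-likelihood, Benjamini-Hochberg over 19200 genes). SEs were derived from the fold change and F statistic, and CPM used TMM library sizes. The pipeline was tested on simulated data. Members, lists and tests were chosen with earlier results of these data known. Named genes were all members, up to 4 called genes per list with the largest change and at least 1 FPKM in a group, and 6 reference genes. An overlap is given where the other gene had at least 10% of the count. Alternatives were DESeq2 1.42.0, limma 3.58.1 (voom, and log2 FPKM with pseudocounts of 1 and 0.1), 3 other scalings, no filter, a replicate block and leaving out each library. Their use on listed and reference genes was added after seeing the data. Figures used matplotlib 3.10.9.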

Additional observations from a re-analysis of the deposited data

How the results depend on the processing

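Over all genes, 7404 were called, and from 5660 to 8302 under the alternatives. With upper-quartile factors the all-gene median was -0.14 on the log2 scale, against -0.01 with TMM, and 3250 genes were higher and 4324 lower, against 3928 and 3476. The split also turned without a composition factor (3551 and 3903) and with limma on log2(FPKM + 1) (3636 and 4176) or on log2(FPKM + 0.1) (3639 and 4127). Of the 9 tested members, 4 were called, and from 4 to 6 with single libraries left out. With limma on log2(FPKM + 1) 7 were called, where MT1F (adjusted p = 0.0486), MT1M (0.0418) and SLC30A1 (0.0337) were added; with a pseudocount of 0.1, MT1M (0.0442) and SLC30A1 (0.0341) were. The cause was not tested. In 135 recomputed values of the members, none changed direction and none of the 4 calls was lost. Among named genes, RPLP0 changed direction, with -0.043 under upper-quartile factors.

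Same-numbered libraries of the groups deviated together with r from 0.0595 to 0.0784, each best with its own number, and the labels do not say what a number marks. With the replicate block 6737 genes and the same number of members (4) were called, and the calls of SLC39A3 (adjusted p = 0.0530), SLC39A6 (0.0892) and HIF1A (0.0515) were lost. Groups of 3 libraries limit the precision of genes with few counts, such as MT1F and MT1M.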
